A study of Homo sapiens with 6 samples.

Results

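Detoxifying and peroxide-clearing enzymes were examined in IMR32, an established cell line from a human neuroblastoma, after 24 h with 20 µM sAKZ692 or with the solvent DMSO, in 3 libraries each. sAKZ692 is a small molecule known by its code name, which the study's design text describes as an activator of NRF2. The members were rows of the deposited table whose gene symbol marked them as peroxiredoxins (PRDX), glutathione peroxidases (GPX), glutathione S-transferases (GST), aldehyde dehydrogenases (ALDH), aldo-keto reductases (AKR), carbonyl reductases (CBR) or cytochromes P450 (CYP). This gave 61 of 11351 genes, of which 7 are annotated as pseudogenes. There were 5 PRDX, 4 GPX, 13 GST, 11 ALDH, 6 AKR, 3 CBR and 19 CYP genes. Other genes of these families were not analysed here.

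Enzymes of these families act on reactive molecules in different ways. Peroxiredoxins and glutathione peroxidases reduce hydrogen peroxide and lipid peroxides, using thioredoxin or glutathione as the electron source. Aldehyde dehydrogenases oxidise aldehydes to acids, aldo-keto and carbonyl reductases turn aldehydes, ketones and quinones into alcohols, cytochromes P450 insert oxygen into lipids and foreign compounds, and glutathione S-transferases attach glutathione to electrophiles. NRF2, a transcription factor that KEAP1 marks for degradation, switches on several of these genes through the antioxidant response element, a short motif in their promoters and enhancers. IMR32 cells come from a tumour of the sympathetic nervous system, in which aldehydes also arise from the breakdown of catecholamines.

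Values are TPM, a transcript level corrected for length, so that levels can be compared between genes. The listed genes summed to between 61.2% and 65.9% of the TPM scale, with the top value in sAKZ692 replicate 3 and between 61.2% and 61.9% in the other 5 libraries. The labels state a sequencing depth of 20000000 reads for every library, but TPM keeps no read counts, so the number of reads behind each value is unknown. Of 13 markers of sympathetic neuroblastoma, 9 were in the table and all 9 passed the filter. Their summed levels were 3144 to 3376 TPM with sAKZ692 and 2840 to 3007 TPM with DMSO. MYCN was the largest part, at means of 1432 TPM with sAKZ692 and 1389 TPM with DMSO. TH, at 0.231, 0.186 and 0.682 TPM with DMSO, passed the filter only through the sAKZ692 libraries (0.971, 1.00 and 5.24 TPM). In sAKZ692 replicates 1, 2 and 3, CHGA was at 485, 511 and 183 TPM and DDC at 23.6, 20.4 and 70.8 TPM. Of the 9, CHGB, a granule protein, passed the threshold used below and was higher, and the part of these markers in the results was not tested. Of the hepatocyte markers, the cell type in which many P450 enzymes are known best, APOA1 was the only gene in the table, at 0.239 to 0.414 TPM with sAKZ692 and 0.314 to 0.617 TPM with DMSO. Of 5 macrophage markers 4 were in the table, summing to 3.47 to 3.97 TPM with sAKZ692 and 2.78 to 4.14 TPM with DMSO, and of 8 mesenchymal markers 3 were, summing to 23.3 to 33.3 TPM with sAKZ692 and 27.2 to 33.1 TPM with DMSO. Of these, PDGFRB, a growth factor receptor, was at 8.01, 7.94 and 9.55 TPM with sAKZ692 and at 4.17, 3.45 and 4.32 TPM with DMSO (log2 fold change 0.93, limma adjusted p = 0.0026). FN1, fibronectin, was at 19.8, 25.0 and 13.4 TPM with sAKZ692 and at 25.4, 29.5 and 22.8 TPM with DMSO and did not pass (-0.43, limma adjusted p = 0.150). The part of the mesenchymal markers in the results was not tested. In one bulk library, fewer cells expressing a gene and less RNA per cell cannot be told apart. sAKZ692 replicate 3 stood apart: over the 9137 tested genes, its values on the log2(TPM + 1) scale correlated with those of sAKZ692 replicates 1 and 2 at Pearson's r = 0.971 and 0.972, against 0.992 between replicates 1 and 2. Calls and directions that turned on this library are given with and without it.

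The antioxidant response element was searched in the RefSeq promoters of the members (GRCh38.p14), which run from 250 bases before to 50 bases after the start of transcription. The letters searched were TGACNNNGC, on both strands. Of the 61 members, 44 had a promoter in the table, and 9 of these (20.5%) held the motif, against 16.1% of all genes with a promoter. Among tested members with a promoter it was found in 2 of 9 that were higher with sAKZ692, 1 of 4 that were lower and 3 of 21 not past the threshold. The promoters of 4 tested members are printed because they hold the same letters beside different values: CYP4V2 and GSTA4 were higher with sAKZ692, AKR7A2 was lower, and GSTP1, one of the most studied transferases, had nearly equal means. Capitals mark the shorter motif, which may lie on either strand. Of the 4, only CYP4V2 and GSTP1 hold the longer form.
CYP4V2 (chr4:186191317-186191616, plus strand): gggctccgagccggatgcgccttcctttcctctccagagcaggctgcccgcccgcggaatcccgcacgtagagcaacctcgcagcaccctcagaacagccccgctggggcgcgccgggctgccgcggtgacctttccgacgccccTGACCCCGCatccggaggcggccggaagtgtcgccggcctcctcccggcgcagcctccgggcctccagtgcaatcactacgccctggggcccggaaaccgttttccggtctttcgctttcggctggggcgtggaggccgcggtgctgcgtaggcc
GSTA4 (chr6:52995235-52995534, minus strand): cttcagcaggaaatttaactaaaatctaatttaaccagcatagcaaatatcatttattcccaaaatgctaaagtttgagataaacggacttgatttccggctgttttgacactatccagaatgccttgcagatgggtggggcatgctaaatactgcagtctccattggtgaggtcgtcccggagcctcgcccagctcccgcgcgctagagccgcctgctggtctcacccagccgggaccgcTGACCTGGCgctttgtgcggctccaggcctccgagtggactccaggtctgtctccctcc
AKR7A2 (chr1:19312095-19312394, minus strand): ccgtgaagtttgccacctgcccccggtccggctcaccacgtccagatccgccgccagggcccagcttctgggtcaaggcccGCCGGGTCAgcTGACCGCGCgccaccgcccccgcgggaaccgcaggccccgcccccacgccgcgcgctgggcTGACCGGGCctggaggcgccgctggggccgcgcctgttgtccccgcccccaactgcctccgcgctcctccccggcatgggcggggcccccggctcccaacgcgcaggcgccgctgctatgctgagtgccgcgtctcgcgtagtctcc
GSTP1 (chr11:67583562-67583861, plus strand): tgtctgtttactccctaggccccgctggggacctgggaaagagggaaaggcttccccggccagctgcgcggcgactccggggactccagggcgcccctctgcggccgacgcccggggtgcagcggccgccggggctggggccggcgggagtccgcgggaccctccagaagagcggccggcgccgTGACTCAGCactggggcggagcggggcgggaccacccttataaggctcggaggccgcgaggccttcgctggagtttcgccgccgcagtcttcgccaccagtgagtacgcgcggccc

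The motif began 105 bases before the start in CYP4V2, 9 bases before it in GSTA4 and 66 bases before it in GSTP1. AKR7A2, shown for one of its RefSeq starts, held 3 matches, the outermost beginning 169 and 97 bases before the start. A match is a description of these letters and not a binding site.

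Across the 7 families, changes ran in both directions. CBR3, CBR4, 3 aldehyde dehydrogenases, 6 glutathione S-transferases and 3 cytochromes P450 rose with sAKZ692, while PRDX3, PRDX6, AKR7A2, AKR1E2 and ALDH7A1 fell. Genes averaging 1 TPM or more over the 6 libraries were tested with limma on log2(TPM + 1), two-sided, with Benjamini-Hochberg adjustment over all 9137 genes tested and a threshold of 0.05. Of the 61 members, 44 were tested. Of these, 14 (31.8%) were higher and 5 (11.4%) lower, where 24.1% of all tested genes were higher and 8.50% lower. The members' shares thus lay near those of all genes. Their median log2 fold change was 0.08, against 0.14 over all tested genes, and the lowest library of one group lay above the highest of the other in 27 members (61.4%), against 50.5% of all tested genes. CBR3 and CYP2D6 had a mean under 1 TPM with DMSO and passed the filter only through the sAKZ692 libraries, so these counts are no support for a direction. The split depended on the scaling. With each library divided by its median ratio, which moved the median of all genes to -0.03 and that of the members to -0.07, 8 members were higher and 12 lower (32.8% of all genes were called, 13.6% higher and 19.2% lower). Quantile normalization gave 8 and 5 members, where 11.8% and 13.0% of all genes were called. Without sAKZ692 replicate 3, 17 members were higher and 10 lower, where 49.1% of all genes were called, 34.6% higher and 14.5% lower. Leaving out DMSO replicate 1, 2 or 3 gave 9, 8 and 10 higher and 2 lower each, and leaving out sAKZ692 replicate 1 or 2 gave 11 higher and 3 lower each. Calls over all 9137 genes became fewer too, from 2204 higher and 777 lower with all libraries. Without DMSO replicate 1, 2 or 3, 1260, 1215 and 1213 genes were higher and 406, 404 and 443 lower. Without sAKZ692 replicate 1 or 2, 1765 and 1659 were higher and 581 and 622 lower.

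**Figure D1:**
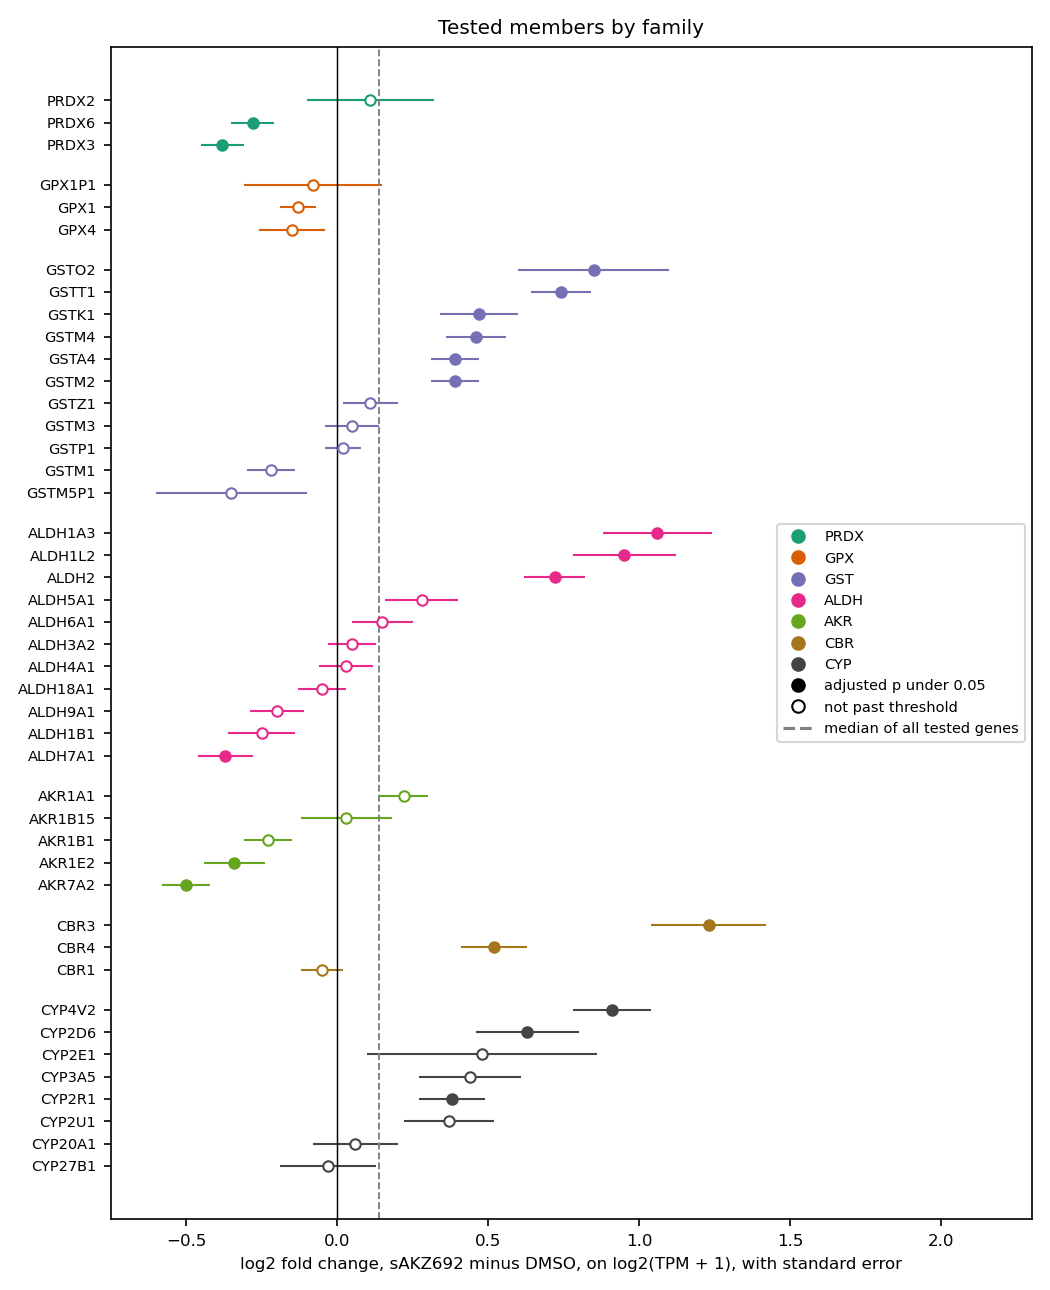
Log2 fold change (sAKZ692 minus DMSO, on log2(TPM + 1)) with its standard error for the 44 tested members, grouped by family. Filled points passed an adjusted p of 0.05 in limma, and the dashed line is the median of all tested genes at 0.14. GST, CBR and CYP members lie mostly to the right of 0 and PRDX and GPX members mostly to the left.

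Among the peroxiredoxins, whose reactive cysteine takes up peroxide, the mitochondrial and the one-cysteine enzyme fell. PRDX3, the peroxiredoxin of mitochondria, was at 147, 152 and 138 TPM with sAKZ692 and at 191, 195 and 186 TPM with DMSO. All 3 treated libraries lay below all DMSO libraries, with a log2 fold change of -0.38 (SE 0.07, adjusted p = 0.0052 in limma). PRDX6, which draws on glutathione and also has phospholipase activity, was at 205, 209 and 184 TPM with sAKZ692 and at 236, 246 and 244 TPM with DMSO, again without overlap (-0.28, SE 0.07, limma adjusted p = 0.0221). The call of PRDX6 was lost without DMSO replicate 1, 2 or 3 (limma adjusted p = 0.0681, 0.0870 and 0.0809) and after quantile normalization (0.121).

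PRDX2, an abundant cytosolic peroxiredoxin, split the treated libraries. It was at 417, 394 and 726 TPM in sAKZ692 replicates 1, 2 and 3 and at 460.1, 452 and 454 TPM with DMSO. Replicates 1 and 2 were below every DMSO library and replicate 3 was above them all. With all libraries its log2 fold change was 0.11 (limma adjusted p = 0.710), and without replicate 3 it was -0.17 (adjusted p = 0.0128), so its direction turned on 1 library. Without that library all 3 tested peroxiredoxins were lower, where 14.5% of all tested genes were. PRDX1, PRDX4 and PRDX5 were not among the rows examined, so these counts and sums cover only part of the family. PRDX2 made up 54.2%, 52.1% and 69.3% of the summed level of the PRDX rows examined in the treated libraries, against 50.6% to 51.9% with DMSO. The remaining PRDX rows, the pseudogenes PRDX3P1 and PRDX3P2, stayed under the filter, at means of 0.217 and 0.230 TPM.

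No glutathione peroxidase passed the threshold in the fit reported here. GPX4, the selenoenzyme that reduces lipid hydroperoxides in membranes and guards against ferroptosis, was at 429, 402 and 538 TPM with sAKZ692 and at 499.7, 493 and 518 TPM with DMSO. As for PRDX2, replicates 1 and 2 lay below the DMSO libraries and replicate 3 above them, with a log2 fold change of -0.15 (SE 0.11, limma adjusted p = 0.309). Without replicate 3 it was -0.28 (adjusted p = 0.0015), and GPX4 was also called lower with array weights. GPX1, the selenoenzyme of the cytosol, was at 259, 248 and 248 TPM with sAKZ692 and at 278, 267 and 280.2 TPM with DMSO. Its groups did not overlap, but the difference of -0.13 did not pass (limma adjusted p = 0.143), except after median-ratio scaling (-0.31, adjusted p = 0.0102). GPX1P1, a pseudogene of GPX1 whose reads may be shared with it, averaged 6.90 ± 2.44 TPM with sAKZ692 and 7.15 ± 1.27 TPM with DMSO (SD, n = 3 each). GPX8, an enzyme of the endoplasmic reticulum, was under the filter at a mean of 0.431 TPM.

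Most of the glutathione S-transferases that passed the threshold are cytosolic enzymes of different classes, and all 6 were higher with sAKZ692. GSTT1, of the theta class, was at 33.8, 34.7 and 29.4 TPM with sAKZ692 and at 19.2, 17.7 and 20.3 TPM with DMSO. Every treated library exceeded every DMSO library, and the log2 fold change was 0.74 (SE 0.10, limma adjusted p = 0.002). GSTA4, which conjugates the lipid peroxidation product hydroxynonenal, was at 84.1, 83.2 and 95.7 TPM with sAKZ692 and at 64.5, 68.1 and 67.6 TPM with DMSO. It rose by 0.39 (SE 0.08, limma adjusted p = 0.0093), without overlap. GSTK1, the kappa enzyme of mitochondria and peroxisomes, was at 56.3, 48.6 and 39.0 TPM with sAKZ692 and at 34.1, 32.7 and 35.2 TPM with DMSO (log2 fold change 0.47, SE 0.13, limma adjusted p = 0.0286). Replicate 3 was the lowest treated library, close above the DMSO range. GSTO2, an omega enzyme that reduces dehydroascorbate, was at 5.68, 4.41 and 2.39 TPM with sAKZ692 and at 2.09, 1.69 and 1.53 TPM with DMSO (0.85, SE 0.25, limma adjusted p = 0.0375). The calls of GSTK1 and GSTO2 were lost without any 1 library except sAKZ692 replicate 3, with limma adjusted p between 0.0647 and 0.0984 for GSTK1 and between 0.0754 and 0.123 for GSTO2. Without sAKZ692 replicate 3 the log2 fold changes were 0.61 for GSTK1 and 1.12 for GSTO2. Median-ratio scaling (0.133 and 0.0621) and quantile normalization (0.0883 and 0.246) ended both calls too.

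The mu-class transferases, 5 neighbouring genes on chromosome 1 in the order GSTM4, GSTM2, GSTM1, GSTM5 and GSTM3, did not share one direction. GSTM2 was at 75.4, 69.3 and 70.1 TPM with sAKZ692 and at 55.6, 49.8 and 57.7 TPM with DMSO (log2 fold change 0.39, SE 0.08, limma adjusted p = 0.010). GSTM4 was at 32.6, 31.8 and 28.2 TPM with sAKZ692 and at 21.6, 20.3 and 24.7 TPM with DMSO (0.46, SE 0.10, limma adjusted p = 0.0135). Both were higher in every treated library than in any DMSO library. GSTM1, next to GSTM2 in that order, was at 66.5, 61.9 and 69.5 TPM with sAKZ692 and at 73.6, 82.2 and 75.9 TPM with DMSO, lower in every treated library, though not past the threshold (-0.22, SE 0.08, limma adjusted p = 0.0601). It passed without sAKZ692 replicate 3 (-0.26, adjusted p = 0.0121) and after median-ratio scaling (-0.41, 0.0079). GSTM3 averaged 112 ± 12.6 TPM with sAKZ692 and 108 ± 2.07 TPM with DMSO (SD, n = 3 each), and GSTM5 was under the filter at a mean of 0.101 TPM. These genes are close copies of each other, and how shared reads were divided among them is not stated in the sources. The call of GSTM4 was lost without DMSO replicate 1 or 2 (limma adjusted p = 0.0577 and 0.0599) and after quantile normalization (0.0670), and those of GSTM4, GSTM2 and GSTA4 after median-ratio scaling (0.0811, 0.0995 and 0.0886).

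GSTP1, the pi-class transferase, was the most abundant member. Its levels were 784, 769.8 and 825 TPM with sAKZ692 and 781, 768 and 794 TPM with DMSO, ranges that overlap, with a log2 fold change of 0.02 (SE 0.06, limma adjusted p = 0.814). It made up 59.7%, 60.8% and 63.1% of the summed GST level with sAKZ692 and 64.5% to 64.6% with DMSO. GSTZ1, which acts in tyrosine breakdown, averaged 46.7 ± 3.07 TPM with sAKZ692 and 43.3 ± 4.04 TPM with DMSO (SD, n = 3 each) and did not pass (limma adjusted p = 0.410). The pseudogene GSTM5P1 was at 1.24 ± 0.774 TPM with sAKZ692 and 1.76 ± 0.167 TPM with DMSO and did not pass. GSTT2B, a near copy of another theta gene, was at 0.00144, 0.835 and 3.21 TPM with sAKZ692 and at 0.525, 0.000798 and 0.616 TPM with DMSO, so that its level is uncertain. In all, 6 of 11 tested GST genes were higher and 0 lower, beside 24.1% and 8.50% of all tested genes. The median log2 fold change was 0.39, against 0.14 over all tested genes. Median-ratio scaling left 1 higher and 1 lower with a median of 0.20, beside 13.6% and 19.2% of all genes. After quantile normalization 3 were higher with a median of 0.32, where 11.8% of all genes were higher.

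**Figure D2:**
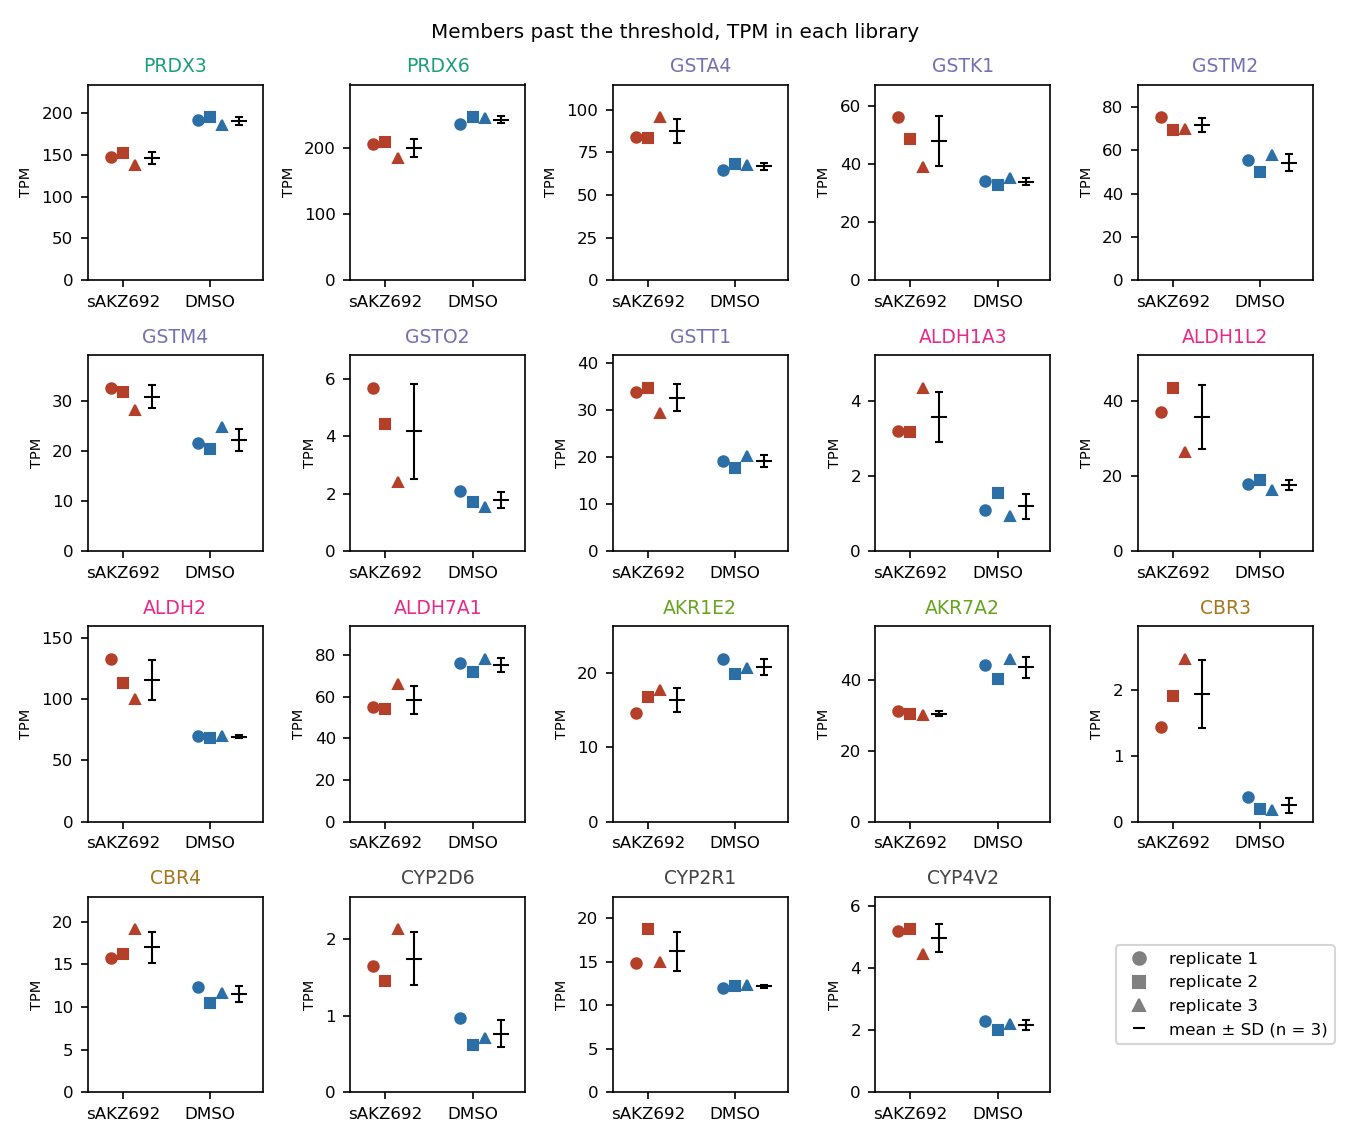
TPM in each library for the 19 members past the threshold, with sAKZ692 at the left and DMSO at the right of each panel, marker shape for the replicate number and the mean ± SD (n = 3) beside the points. The groups do not overlap in any of the 19, which is no added support, since these were picked for their difference. Over all tested genes 50.5% did not overlap. Replicate 3 is the lowest treated library for PRDX3, PRDX6, GSTK1, GSTM4, GSTO2, GSTT1, ALDH1L2, ALDH2, AKR7A2 and CYP4V2, and the highest for GSTA4, ALDH1A3, ALDH7A1, AKR1E2, CBR3, CBR4 and CYP2D6.

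Among the 11 tested aldehyde dehydrogenases, 3 (27.3%) rose and 1 (9.09%) fell, near the 24.1% and 8.50% of all tested genes. ALDH2, the mitochondrial enzyme that clears acetaldehyde and other small aldehydes, was at 133, 113 and 100.4 TPM with sAKZ692 and at 69.9, 68.0 and 70.2 TPM with DMSO. The treated libraries lay well above the narrow DMSO range (log2 fold change 0.72, SE 0.10, limma adjusted p = 0.0029). ALDH1L2, a mitochondrial folate enzyme that oxidises formyl-tetrahydrofolate and yields NADPH, was at 37.2, 43.6 and 26.5 TPM with sAKZ692 and at 17.8, 19.0 and 16.2 TPM with DMSO. It was higher in all 3 treated libraries, and lowest among them in replicate 3 (0.95, SE 0.17, limma adjusted p = 0.0063). Without replicate 3 its log2 fold change was 1.15. ALDH1A3, which makes retinoic acid from retinaldehyde, was at 3.21, 3.17 and 4.35 TPM with sAKZ692 and at 1.08, 1.55 and 0.931 TPM with DMSO. The ratio of mean TPM was 3.01, and the log2 fold change was 1.06 (SE 0.18, limma adjusted p = 0.0048). ALDH7A1, the aldehyde dehydrogenase of lysine breakdown, was at 55.1, 54.3 and 66.1 TPM with sAKZ692 and at 76.3, 71.7 and 78.3 TPM with DMSO, lower in every treated library (-0.37, SE 0.09, limma adjusted p = 0.0219). That call was lost without any 1 library except sAKZ692 replicate 3 (limma adjusted p = 0.0553 to 0.0870).

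The other 7 aldehyde dehydrogenases did not pass. ALDH18A1, which makes the proline precursor in mitochondria, averaged 75.4 ± 2.70 TPM with sAKZ692 and 78.4 ± 5.61 TPM with DMSO (SD, n = 3 each), a difference within the spread. The mitochondrial ALDH1B1 was at 38.5 ± 5.32 TPM with sAKZ692 and 45.6 ± 2.3 TPM with DMSO. Under median-ratio scaling ALDH18A1 (-0.24, limma adjusted p = 0.0440) and ALDH1B1 (-0.43, 0.0215) did pass. ALDH3A2, which oxidises fatty aldehydes, was at 41.8 ± 1.66 TPM with sAKZ692 and 40.4 ± 3.07 TPM with DMSO. ALDH9A1, an aminoaldehyde dehydrogenase of carnitine synthesis, was at 29.0, 29.6 and 33.5 TPM with sAKZ692 and at 35.7, 36.6 and 33.6 TPM with DMSO. Its groups barely failed to overlap, and the difference of -0.20 did not pass (limma adjusted p = 0.116), but did so without sAKZ692 replicate 3 (-0.26, 0.0155) under median-ratio scaling (-0.38, 0.0128) and under quantile normalization (-0.32, 0.0314). ALDH5A1, which removes succinic semialdehyde from GABA breakdown, averaged 11.5 ± 1.33 TPM with sAKZ692 and 9.22 ± 0.667 TPM with DMSO and passed only in fits that left out or down-weighted libraries (without replicate 3, adjusted p = 0.0155). ALDH4A1, of proline breakdown, was at 13.7 ± 0.717 TPM with sAKZ692 and 13.4 ± 0.297 TPM with DMSO and ALDH6A1, of valine breakdown, at 11.1 ± 0.788 TPM with sAKZ692 and 9.88 ± 0.405 TPM with DMSO. The family's median log2 fold change of 0.05 turned to -0.13 under median-ratio scaling, with 3 higher and 4 lower (13.6% and 19.2% of all genes). Quantile normalization gave a median of -0.05, with 3 higher and 2 lower (11.8% and 13.0% of all genes).

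Of the aldo-keto reductases 6 rows were examined. Of 5 tested, 2 fell and 0 rose, where 8.50% of all tested genes were lower and 24.1% higher. AKR7A2, which reduces succinic semialdehyde and aflatoxin aldehydes, was at 31.1, 30.2 and 29.9 TPM with sAKZ692 and at 44.2, 40.2 and 45.9 TPM with DMSO. The treated libraries were tightly grouped and all below the DMSO libraries (log2 fold change -0.50, SE 0.08, limma adjusted p = 0.004). AKR1E2, an anhydrofructose reductase, was at 14.6, 16.7 and 17.7 TPM with sAKZ692 and at 21.9, 19.8 and 20.7 TPM with DMSO (-0.34, SE 0.10, limma adjusted p = 0.0380). This call was lost without any 1 library except sAKZ692 replicate 3 (limma adjusted p = 0.0736 to 0.133). AKR1B1, aldose reductase, the entry enzyme of the polyol pathway, was at 305, 293 and 255 TPM with sAKZ692 and at 324, 333 and 338 TPM with DMSO. Its groups did not overlap, yet the difference of -0.23 missed the threshold (SE 0.08, limma adjusted p = 0.0640), and passed after median-ratio scaling (-0.41, 0.0095), with array weights (-0.16, 0.0256) and without replicate 3 (-0.15, 0.0221). AKR1A1, aldehyde reductase, was at 73.0, 77.5 and 71.9 TPM with sAKZ692 and at 61.7, 59.9 and 69.9 TPM with DMSO, higher in every treated library but not past the threshold (0.22, limma adjusted p = 0.0781), except without replicate 3 (0.24, 0.0306) and with array weights (0.26, 0.0120). AKR1B15 was near the filter at 1.16 ± 0.136 TPM with sAKZ692 and 1.11 ± 0.128 TPM with DMSO, and AKR7A3, a close relative of AKR7A2, was under it at a mean of 0.311 TPM.

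The carbonyl reductases differed from each other. CBR3 was at 1.44, 1.91 and 2.47 TPM with sAKZ692 and at 0.369, 0.185 and 0.182 TPM with DMSO, a ratio of mean TPM of 7.89 and the largest log2 fold change of any tested member (1.23, SE 0.19, limma adjusted p = 0.0037). Its level stayed low. Its mean of 1.09 TPM was the closest to the filter from above among all members, as GSTT2B with 0.865 TPM was from below. Whether counting used strand is not stated in the sources, so reads of CBR3 and its antisense partner CBR3-AS1 may not be told apart. CBR4, a mitochondrial quinone reductase that also acts in fatty acid synthesis, was at 15.7, 16.2 and 19.1 TPM with sAKZ692 and at 12.4, 10.5 and 11.6 TPM with DMSO (0.52, SE 0.11, limma adjusted p = 0.0121). All treated libraries were above the DMSO range, but the call was lost without DMSO replicate 2 (limma adjusted p = 0.0551) and after quantile normalization (0.112). CBR1, the abundant cytosolic enzyme that reduces quinones and prostaglandins, was at 99.8, 96.2 and 87.5 TPM with sAKZ692 and at 97.8, 97.2 and 98.3 TPM with DMSO. Its ranges overlapped (-0.05, SE 0.07, limma adjusted p = 0.612), although median-ratio scaling gave -0.23 (0.0433).

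Of the cytochromes P450, the family with the lowest summed level, 3 of 8 tested members were higher and 0 lower. These counts stand beside 24.1% and 8.50% of all tested genes, and CYP2D6 passed the filter only through the sAKZ692 libraries. CYP4V2, a fatty acid hydroxylase, was at 5.21, 5.26 and 4.47 TPM with sAKZ692 and at 2.3, 2.01 and 2.22 TPM with DMSO. The treated level was 2.28 times the DMSO level in mean TPM, with no overlap (log2 fold change 0.91, SE 0.13, limma adjusted p = 0.0027). CYP2R1, a vitamin D hydroxylase, was at 14.8, 18.7 and 15.0 TPM with sAKZ692 and at 12.0, 12.2 and 12.3 TPM with DMSO (0.38, SE 0.11, limma adjusted p = 0.0380). CYP2D6, a drug-metabolising enzyme, was at 1.64, 1.45 and 2.12 TPM with sAKZ692 and at 0.962, 0.620 and 0.708 TPM with DMSO (0.63, SE 0.17, limma adjusted p = 0.0282). Its reads may be shared with the related pseudogene CYP2D8P, which was at 0.561 ± 0.205 TPM with sAKZ692 and 0.258 ± 0.00455 TPM with DMSO (SD, n = 3 each). The call of CYP2R1 was lost without sAKZ692 replicate 2 or any 1 DMSO library (limma adjusted p = 0.0993 to 0.112), with no filter (0.0517), under median-ratio scaling (0.189) and under quantile normalization (0.335). That of CYP2D6 was lost without sAKZ692 replicate 1 or any 1 DMSO library (0.0588 to 0.10) and after quantile normalization (0.239).

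The remaining P450 genes did not pass or were not tested. CYP2E1, an ethanol-oxidising enzyme, was at 4.36, 6.26 and 1.5 TPM in sAKZ692 replicates 1, 2 and 3 and at 2.07, 3.22 and 1.79 TPM with DMSO. Replicates 1 and 2 were above all DMSO libraries and replicate 3 below them, and the log2 fold change of 0.48 (limma adjusted p = 0.359) became 0.92 without replicate 3 (0.0064). CYP2U1, a fatty acid hydroxylase, averaged 3.91 ± 0.458 TPM with sAKZ692 and 2.79 ± 0.404 TPM with DMSO, and CYP3A5, a drug-metabolising enzyme, 2.17 ± 0.353 TPM with sAKZ692 and 1.34 ± 0.298 TPM with DMSO (SD, n = 3 each). Neither group pair overlapped, and neither passed (limma adjusted p = 0.0842 and 0.0843). CYP27B1, which completes vitamin D activation, was at 9.50 ± 1.39 TPM with sAKZ692 and 9.73 ± 1.62 TPM with DMSO, and the orphan enzyme CYP20A1 at 9.76 ± 1.48 TPM with sAKZ692 and 9.33 ± 1.19 TPM with DMSO. The 11 P450 genes under the filter had means between 0.0563 and 0.410 TPM. With no filter, CYP1A1, an enzyme that the aryl hydrocarbon receptor switches on, was among the 2 of all 17 untested members that passed, at 0.562, 0.872 and 0.584 TPM with sAKZ692 and 0.185, 0.185 and 0.0329 TPM with DMSO (0.56, limma adjusted p = 0.0109, where 20.1% of all genes were higher and 6.53% lower). The other was the pseudogene CYP21A1P (0.50, adjusted p = 0.0190), a close copy of CYP21A2. At these levels a few reads can decide a value.

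**Figure D3:**
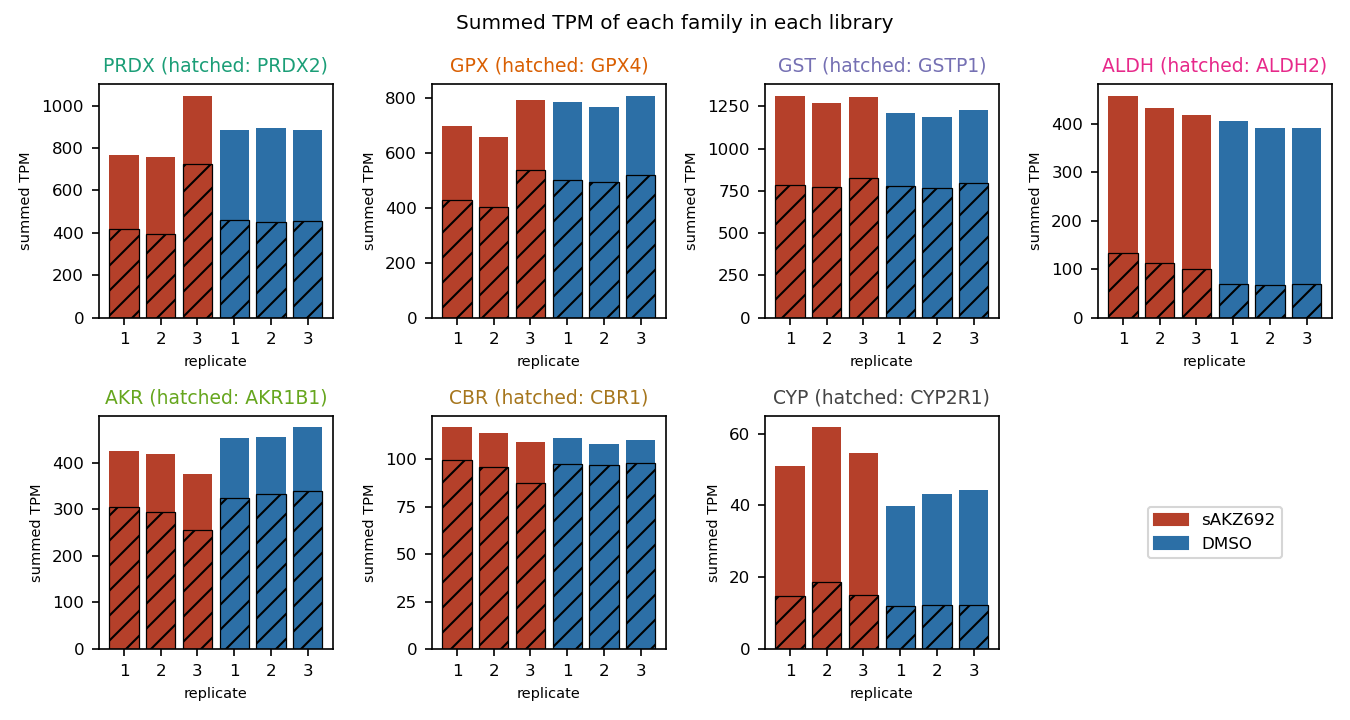
Summed TPM of each family in each library, with sAKZ692 replicates at the left and DMSO replicates at the right, and the most abundant member hatched. ALDH, GST and CYP sums were higher in all 3 treated libraries than in any DMSO library and AKR sums lower, while the PRDX sum stood out in sAKZ692 replicate 3 at 1048 TPM.

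Summed over members, the total level of the 61 genes was 3832, 3707 and 4102 TPM with sAKZ692 and 3892, 3844 and 3943 TPM with DMSO, so the ranges overlapped. The GST sum was 1313, 1267 and 1307 TPM with sAKZ692 and 1212, 1189 and 1230 TPM with DMSO, and the ALDH sum was 458, 433 and 417 TPM with sAKZ692 and 405, 391 and 392 TPM with DMSO. ALDH2 took 29.1%, 26.1% and 24.1% of the ALDH sum with sAKZ692, against 17.3% to 17.9% with DMSO. The CYP sum was 50.9, 61.8 and 54.7 TPM with sAKZ692 and 39.9, 43.3 and 44.3 TPM with DMSO. The sum of the 6 AKR rows ran the other way, at 425, 418 and 376 TPM with sAKZ692 and 453, 454 and 476 TPM with DMSO. PRDX sums were 769, 756 and 1048 TPM with sAKZ692 and 884 to 893 TPM with DMSO, and GPX sums 698, 657 and 791 TPM with sAKZ692 and 766 to 807 TPM with DMSO. For PRDX and GPX, replicates 1 and 2 of sAKZ692 were below all DMSO libraries and replicate 3 was not. Sums were not tested, since they follow the choice of members and the most abundant of them.

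Level and direction went together among the members as they did among all genes. Of the 8 tested members with a mean of at least 100 TPM, 0 were higher and 2 lower, and the median log2 fold change was -0.14. Over all 1095 such genes 13.2% were higher and 23.8% lower, with a median of -0.08. Of the 36 tested members under 100 TPM, 14 were higher and 3 lower with a median of 0.25, where 25.6% of all such genes were higher and 6.42% lower with a median of 0.17. The division at 100 TPM was chosen after the values were seen.

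**Figure D4:**
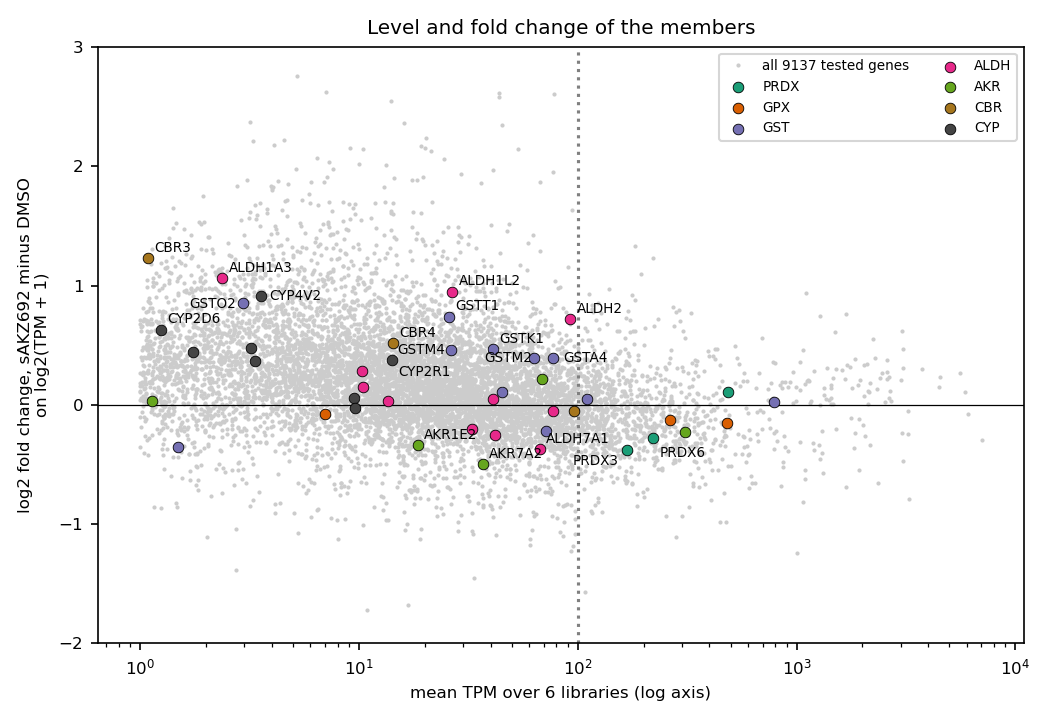
Mean TPM over the 6 libraries (log axis) against the log2 fold change (sAKZ692 minus DMSO, on log2(TPM + 1)) for all 9137 tested genes in grey and the members coloured by family, with the 19 called members named. The dotted line marks 100 TPM, to the right of which 0 of 8 members were higher and 2 lower. Of all such genes 13.2% were higher and 23.8% lower.

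Enzymes that serve the same routes were followed in lists chosen with earlier results of these data known. Of 16 tested partners of peroxide and thiol chemistry, 7 were higher and 3 lower, where 24.1% of all tested genes were higher and 8.50% lower, with a median log2 fold change of 0.04 against 0.14 over all. SRXN1, the sulfiredoxin that repairs overoxidised peroxiredoxins, was at 32.6, 32.2 and 38.1 TPM with sAKZ692 and at 15.9, 16.6 and 14.3 TPM with DMSO. Every treated library lay above every DMSO library (log2 fold change 1.09, SE 0.10, limma adjusted p = 0.00076), the opposite direction to PRDX3 and PRDX6. The sestrins SESN2 and SESN3 had log2 fold changes of 1.47 and 1.06 in the same direction as SRXN1 (limma adjusted p = 0.0021 and 0.0063). The call of SESN3 was lost after quantile normalization (limma adjusted p = 0.0529). SESN1, a further sestrin, did not pass (-0.14, limma adjusted p = 0.517). PARK7, the DJ-1 gene, was at 204, 199 and 206 TPM with sAKZ692 and at 259, 254 and 248 TPM with DMSO, a log2 fold change of -0.32 (limma adjusted p = 0.0067).

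Of 23 other tested conjugating and oxidising enzymes, 7 were higher and 2 lower (24.1% and 8.50% of all tested genes), with a median of 0.20 against 0.14. MGST3, a microsomal glutathione transferase outside the GST symbols, was at 74.2, 74.8 and 90.0 TPM with sAKZ692 and at 44.0, 45.6 and 44.7 TPM with DMSO (log2 fold change 0.81, SE 0.09, limma adjusted p = 0.0012). NQO1, a quinone reductase and common readout of NRF2, was at 61, 52.0 and 84.7 TPM with sAKZ692 and at 15.6, 16.1 and 15.6 TPM with DMSO. NQO1 had a log2 fold change of 1.97 (SE 0.16, limma adjusted p = 0.00051). CYB5R1, a cytochrome b5 reductase, and HSD17B12, a ketoacyl reductase of long fatty acids, had log2 fold changes of 0.70 and 0.85 (limma adjusted p = 0.0021 and 0.0045), also higher in every treated library.

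Of 5 tested genes listed as transporters of conjugates and drugs, 3 were higher and 0 lower, beside 24.1% and 8.50% of all tested genes. The median was 0.36 against 0.14. ABCC10 was at 15.7, 13.0 and 11.4 TPM with sAKZ692 and at 8.05, 7.32 and 7.59 TPM with DMSO (log2 fold change 0.72, limma adjusted p = 0.0062). SLCO3A1, counted among the 3, is a solute carrier and not an export pump (0.94, limma adjusted p = 0.0194). It lost its call without DMSO replicate 2 or 3 (0.0750 and 0.0716) and after quantile normalization (0.145). ABCC1, the main pump for glutathione conjugates (0.31, limma adjusted p = 0.0390), lost its call in 9 of 16 alternatives. Among them were leaving out any 1 library except sAKZ692 replicate 3 (0.0561 to 0.115) and either scaling (0.284 and 0.124).

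Of 11 tested genes for selenoproteins and their synthesis, 3 were higher and 0 lower (24.1% and 8.50% of all tested genes), with a median of 0.09 against 0.14. GPX1 and GPX4 depend on the synthesis genes. Of these, PSTK (-0.32, limma adjusted p = 0.169) and TRNAU1AP (-0.23, 0.0861) did not pass. SELENOM was at 37.2, 36.6 and 33.2 TPM with sAKZ692 and at 25.1, 22.8 and 25.4 TPM with DMSO (log2 fold change 0.53, limma adjusted p = 0.0043). TXNRD1, also counted among the thiol partners, the reductase of thioredoxin that keeps peroxiredoxins supplied, was at 245, 246 and 382 TPM with sAKZ692 and at 179, 174 and 164 TPM with DMSO (0.72, limma adjusted p = 0.0149), a call lost without DMSO replicate 2 or 3 (limma adjusted p = 0.0537 and 0.0651). Without sAKZ692 replicate 3 the log2 fold change of TXNRD1 was 0.51. SECISBP2, a protein of selenocysteine insertion (0.22, limma adjusted p = 0.0443), lost its call in 9 of 16 alternatives. Among them were leaving out any 1 library except sAKZ692 replicate 3 (0.0800 to 0.143) and either scaling (0.701 and 0.123). Of 9 genes of these families named in published NRF2 target sets, 3 were among the members and tested. CBR3 was higher while CBR1 and GSTM3 did not pass, where 24.1% of all tested genes were higher and 8.50% lower. The median log2 fold change of the 3 was 0.05, against 0.14 over all tested genes. CBR3 had passed the filter only through the sAKZ692 libraries.

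Of the 19 calls among the members, 10 held when any 1 library was left out, and 8 held in every alternative that gave a value. The 8 were GSTT1, ALDH2, ALDH1A3, ALDH1L2, CBR3 and CYP4V2, all higher with sAKZ692, and AKR7A2 and PRDX3, both lower. CBR3 passed the filter only through the sAKZ692 libraries, so its call is no support for a direction. ALDH1A3, CBR3 and CYP4V2 gave a value in 15 of 16 alternatives, since they lay under a minimum mean of 5 TPM. How many of all called genes held in the same way was not determined.

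**Figure D5:**
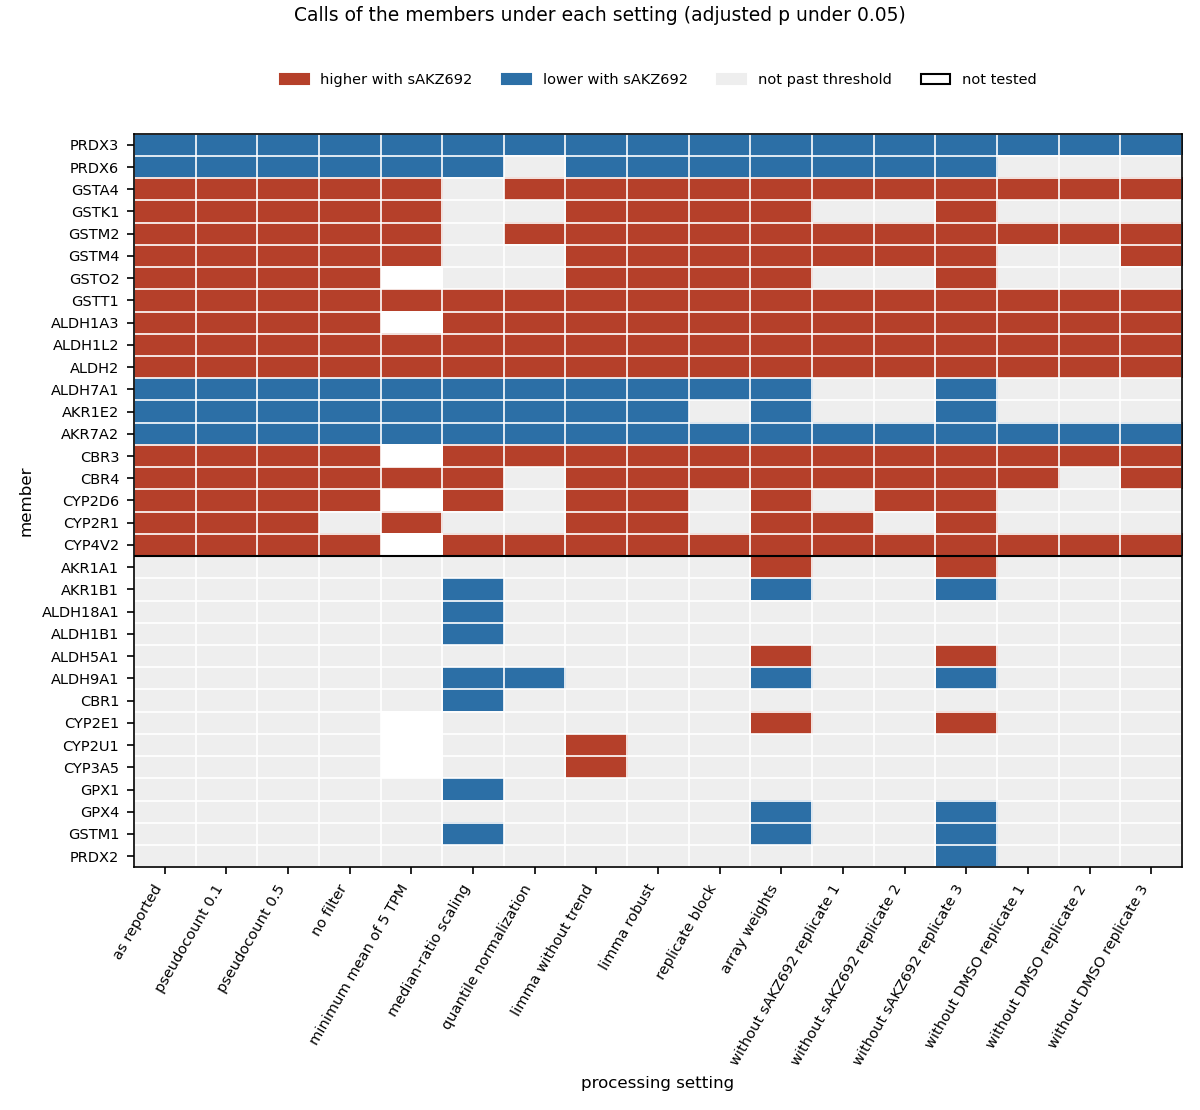
Calls of the members called in at least 1 setting (rows) under each processing setting (columns), red for higher and blue for lower with sAKZ692 at an adjusted p under 0.05 in limma, grey for not past it and white for not tested. The 19 calls reported stand above the line, and 8 of them keep their colour wherever they were tested, while median-ratio scaling and leaving out sAKZ692 replicate 3 add calls below the line.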

How the data were processed

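RNA from 6 IMR32 libraries, 3 with sAKZ692 and 3 with DMSO, was sequenced as single-end reads of 50 bases, per the labels' protocols. The authors deposited 1 table of TPM, made with kallisto per the submitters' processing notes. The sources used here do not give the kallisto version, annotation, build or strand setting. All 6 columns matched a sample title, and groups came from the treatment labels. Whether replicates came from separate cultures is not in the labels, and the p-values rest on variation among these libraries, which may be technical.

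Genes averaging 1 TPM or more were compared on log2(TPM + 1), which understates changes of low genes, with limma (version 3.58.1, R version 4.3.3) and its trend option. All p-values were adjusted over the 9137 genes tested. The members and lists were chosen with earlier results of these data known. By rule, the text names each member past the threshold, the 2 most abundant others of each family, some members fixed by name, and up to 4 genes per list with the smallest adjusted p. Other members named were chosen after their values were seen. 1 further AKR row is not reported here. Motifs were searched in RefSeq promoters. Alternatives were the pseudocount, the filter, the scaling, limma's variance model, a replicate block, leaving out each library and, chosen after seeing the data, array weights.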

Additional observations from a re-analysis of the deposited data

How the results depend on the processing

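TPM keeps no read counts, so low levels cannot be given an interval, and 3 libraries per group limit the precision. Pseudocounts of 0.1 or 0.5 and robust estimation changed no call of a member. Besides the values in the report, these counts and medians moved. After median-ratio scaling 1242 genes were higher and 1754 lower, and among members 8 and 12. The members' median became -0.07. Medians became -0.41 for AKR, -0.13 for ALDH (4 lower), 0.35 for CBR (1 lower), 0.28 for CYP, -0.31 for GPX (1 lower), 0.20 for GST (1 higher, 1 lower) and -0.46 for PRDX. For lists they were 0.03 for other conjugating enzymes (5 lower) and 0.19 for transporters (1 lower). They were -0.05 for selenoproteins (3 lower) and -0.14 for NRF2 target members (1 lower). After quantile normalization 1077 genes were higher and 1184 lower, and 8 members were higher. The members' median was -0.00, with -0.31 for AKR, -0.05 for ALDH (2 lower), 0.29 for CBR (1 higher), 0.07 for CYP (1 higher) and -0.04 for GPX, 3 GST higher and 1 PRDX lower. Of the lists, thiol partners had 1 lower, transporters 1 higher (median 0.20) and selenoproteins 1 lower (0.01). A minimum of 5 TPM left 34 members tested and 9 higher, while 1726 of all genes were higher and 766 lower. Higher genes were 64.3% of the called members and 69.3% of all called genes. Of the 9, 1 was of CBR (median 0.23) and 1 of CYP (0.06). The median was -0.28 for AKR, and 0 NRF2 target members were higher. With no filter the medians were -0.15 for AKR, 0.18 for CYP and -0.03 for PRDX. With array weights 3267 genes were higher and 1324 lower. Among members 9 were lower, with 1 AKR higher (median -0.16) and 2 ALDH, 1 GPX and 1 GST lower. Of the lists, 2 selenoprotein genes were lower, and other conjugating enzymes had a median of 0.28. Without the trend 5 CYP were higher, where 2193 of all genes were higher and 652 lower. A pseudocount of 0.1 gave CYP a median of 0.53.

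Leaving out 1 library gave 1213 to 3163 genes higher and 404 to 1321 lower, and 8 to 17 members higher and 2 to 10 lower. Higher members numbered 0 to 1 for AKR, 1 to 2 for CBR, 1 to 4 for CYP and 3 to 6 for GST. Lower members numbered 1 to 3 for AKR, 0 to 2 for ALDH, 0 to 1 for GPX and GST and 1 to 3 for PRDX. Medians ranged from -0.26 to -0.15 for AKR and from -0.17 to -0.07 for GPX. Thiol partners had 1 to 5 lower and other conjugating enzymes 0 to 3 lower (median 0.18 to 0.28). Transporters had 1 to 4 higher (0.31 to 0.47), and selenoproteins 1 to 4 higher and 0 to 2 lower. PRDX2 ranged from -0.17, without sAKZ692 replicate 3, to 0.27, without sAKZ692 replicate 2. The causes were not tested.

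With the replicate number as a block, 12 members were higher and 4 lower, with 1 AKR lower and 1 CYP higher, and AKR1E2, CYP2D6 and CYP2R1 lost their calls (adjusted p = 0.0751, 0.0570 and 0.0601). Same-numbered libraries did not deviate together (r = 0.06, -0.02 and 0.04 across genes). With 3 libraries per group, each centred on its group mean, these values cannot decide whether the numbers pair the samples. Not every library correlated best with its own number.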
